A study of Mus musculus with 23 samples.

Results

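The comparison described here is the loss of Nampt from skeletal muscle at 7 months of age: 4 quadriceps libraries from mice whose skeletal muscle is Nampt-deficient (mNKO) against 4 from wild-type mice (WT), 8 of the 23 libraries of the study. Members were chosen by genotype and age alone. All 8 mice were of the C57BL/6 background, ate standard chow and were at times given glucose and exercise tolerance tests. The WT and mNKO mice differ, as far as the labels say, only in the muscle deficiency for Nampt. The promoter or Cre line behind the deletion, the sex of the mice and any littermate relation are not given in the sources used here. Each library is whole quadriceps of a mouse with its own number, so fibres and the cells between them were measured together.

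Nampt encodes the enzyme that turns nicotinamide into nicotinamide mononucleotide, the rate-limiting step by which most mammalian tissues regain NAD. NAD carries electrons in glycolysis, the citric acid cycle and fatty acid oxidation, and it is used up by sirtuins, by poly-ADP-ribose polymerases and by CD38. Skeletal muscle holds large multinucleated fibres that contract, satellite cells that rebuild them after injury, fibroblasts that lay down matrix, vessels, nerve endings and resident macrophages.

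Levels are in CPM, the usual unit of a gene's counts relative to the library total, here after TMM scaling, which sets the libraries on a common scale by the bulk of genes, and differences are log2 fold changes of mNKO over WT with their standard error (SE). A gene is said to rise or fall where edgeR's quasi-likelihood test gave an adjusted p (Benjamini-Hochberg over 13140 genes) under 0.05. Nampt (chromosome 12, 32819545 to 32853349, mm10) was at 123, 102, 125 and 127 CPM in WT and 19.8, 19, 23.3 and 12.5 in mNKO, and no mNKO library reached the lowest WT library (log2 fold change -2.68, SE 0.18, adjusted p = 3.62e-06). Library depth was 14900674 to 22755930 counts on genes. Summed CPM of 12 skeletal muscle fibre markers went from 193300 to 226500 in WT to 86670 to 130600 in mNKO, and 8 of the 12 were called lower. Markers of other cells rose beside them. The macrophage sum (9 of 9 markers called higher) was 71.3 to 264 CPM in WT and 846 to 1517 in mNKO, and that of fibro-adipogenic progenitors, the matrix-making fibroblasts of muscle (8 of 10), was 1341 to 2011 in WT and 2630 to 4394 in mNKO. Tenocyte markers (7 of 7 tested) summed to 57.9 to 71.9 CPM in WT and 429 to 802 in mNKO. The endothelial sum was 212 to 301 CPM in WT and 193 to 325 in mNKO. Neutrophil markers (8 listed, 4 tested, 1 called higher) summed to 1.07 to 3.04 CPM in WT and 5.63 to 8.47 in mNKO. Eosinophil markers (6 listed, 1 tested, 1 called higher) summed to 0.409 to 0.84 in WT and 3.82 to 7.45 in mNKO. Ly6g of neutrophils and Epx of eosinophils had no read in any library. Markers this low could pass the filter on low counts through mNKO alone, so their share of calls depends on the filter. Adipocyte and red blood cell sums overlapped between the groups, and keratinocyte markers summed to at most 3.84 CPM. In bulk muscle, more cells of a type and more RNA per cell cannot be told apart, and the part of these shifts in any result below was not tested. WT replicate 4 stood nearest to mNKO (at -44.8 on the first principal component, against -81.8 to -63.9 for the other WT libraries and 52 to 84.9 for mNKO) and had the highest WT macrophage sum, 264 CPM. Without it 3788 genes were higher and 3055 lower, and the larger of the 2 counts of no list described below moved by more than 1.44 times.

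The response reached genes at every level, and its direction went with the level. Of 13140 genes tested, 53.1% were called, 28.6% higher and 24.5% lower in mNKO, and 19.2% and 7.5% by at least 2-fold. The 4 WT and 4 mNKO values did not overlap for 50.1% of genes. Rises were larger than falls: 487 genes rose at least 8-fold and 653 rose 4- to 8-fold, against 51 and 105 that fell that far. Among the 76 genes at a mean of 1000 CPM or more, 4 rose and 46 fell, with a median log2 fold change of -0.67, whereas among the 1027 genes under 1 CPM 388 rose and 92 fell, with a median of 0.59. A gene under 1 CPM could pass the filter on low counts through the group where it is high. The share of calls and the median in that class therefore depend on the filter, and by how much was not tested. The bar plot of direction by expression level shows the turn between, with 36.7% higher and 13.2% lower at 1 to 10 CPM and 13.8% higher and 46.6% lower at 100 to 1000 CPM. Scaling to total counts alone moves every gene up by about 0.52 on the log2 scale (the median of all genes goes from 0.01 to 0.54). Under it all 3759 rises and 927 of the 3215 falls were called in the same direction, no fall was called a rise, 51.6% of genes were called higher and 7.05% lower, and at 1000 CPM or more 13 genes rose and 24 fell. Every count of a list or family below is to be read against the shares of all genes, 28.6% higher and 24.5% lower with TMM.

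**Figure D1:**
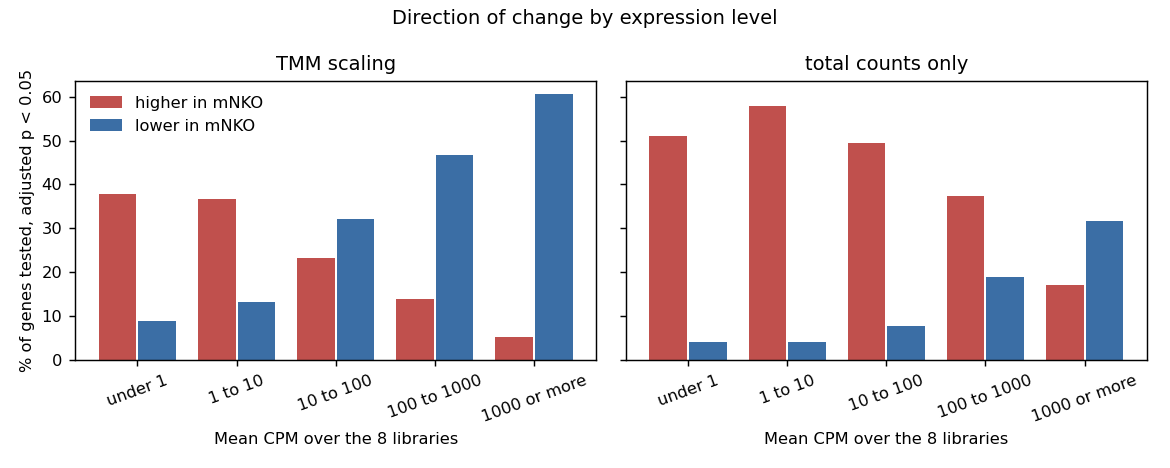
Share of genes tested that were called higher (red) or lower (blue) in mNKO, in 5 classes of mean CPM over the 8 libraries, with TMM scaling on the left and total counts alone on the right. With TMM the share called lower climbs from 9% under 1 CPM to 60.5% at 1000 CPM or more, and the share called higher drops from 37.8% to 5.3%. Genes under 1 CPM could pass the filter on low counts through the group where they are high.

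Counts were spread over more genes in mNKO. In WT, 30, 21, 23 and 33 genes held 50% of all counts, and in mNKO 114, 88, 126 and 119 did (difference of means 85, exact permutation p = 0.0286, two-sided, the smallest that 4 against 4 allows, and 0.0286 after adjustment over 4 library measures). The 10 most abundant genes took 30.15% to 33.71% of counts in WT and 21.39% to 23.88% in mNKO, with the same exact p. Mitochondrially encoded genes took 13.85% to 19.65% in WT and 7.74% to 13.64% in mNKO (exact p = 0.0286), and reads not assigned to a gene 27.2% to 33.5% and 21.53% to 26.89% (exact p = 0.0286). No mNKO library overlapped the WT range for any of the 4 measures. The 10 genes that lost most share were Myh4, the myosin of the fastest mouse fibres, Ckm, muscle creatine kinase, the fibre genes Tnnt3, Myl1 and Tpm1, and 5 mitochondrially encoded genes, and together they made up 29.7% ± 1.96 of counts in WT and 18% ± 1.81 in mNKO (SD, n = 4 each). Other abundant fibre genes gained share. Among the 10 largest gains were Mylpf (1.13% in WT and 1.43% in mNKO), Tpm2 (0.888% and 1.11%), Des (0.384% and 0.635%), Casq1 (0.418% and 0.572%) and Myh1 (0.0571% and 0.34%). The 2522 genes called higher by at least 2-fold together made up 1.81% ± 0.419 in WT and 10.2% ± 1.52 in mNKO (SD, n = 4 each). These sets of genes were picked by their change in these same libraries. The direction of each summed share was thus fixed by the choice, and the sums only describe its size.

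**Figure D2:**
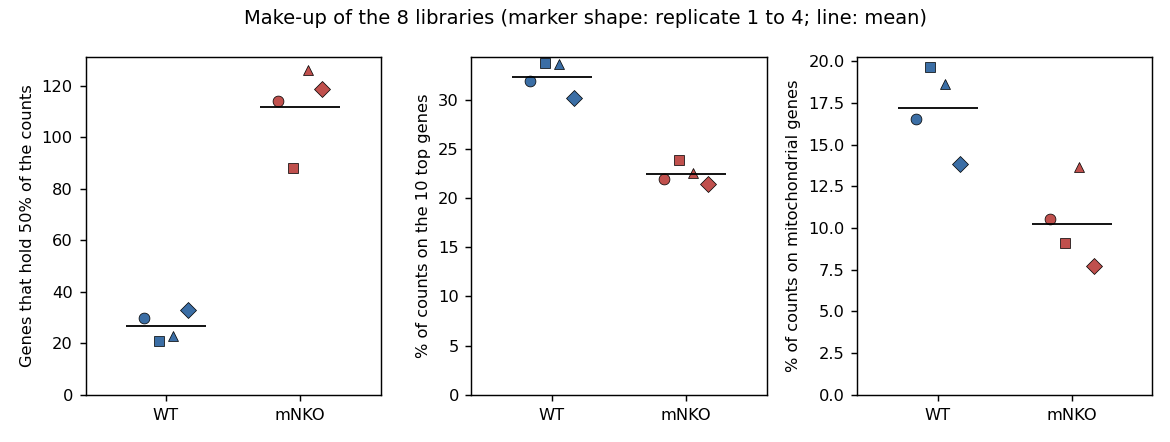
3 library measures for the 4 WT (blue) and 4 mNKO (red) libraries, with 1 symbol per library and a line at the mean. The number of genes that hold 50% of the counts lies between 21 and 33 in WT and between 88 and 126 in mNKO, and the shares on the 10 top genes and on mitochondrial genes lie lower in mNKO.

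Genes for proteins that regulate the calcium pump of muscle changed in both directions. SERCA pumps return calcium from the cytosol to the sarcoplasmic reticulum, and small membrane peptides hold them back. Sln (chromosome 9, 53850164 to 53854560), which encodes the inhibitory peptide sarcolipin, was at 1.54, 0.643, 2.26 and 1.8 CPM in WT and 57, 58.3, 24.5 and 111 in mNKO (log2 fold change 5.32, SE 0.55, adjusted p = 8.63e-05). The gene 2310015B20Rik, named Mrln in GENCODE M21 and encoding the inhibitory peptide myoregulin, was at 35.8, 88, 72.7 and 79.1 CPM in WT and 9.9, 20.3, 11.4 and 16.2 in mNKO (log2 fold change -2.26, SE 0.31, adjusted p = 0.000254). One peptide gene was thus higher in every mNKO library and the other lower in every mNKO library than in any WT library. The cardiac and slow-fibre calcium store protein Casq2 was at 9.6, 10.8, 13.1 and 7.02 CPM in WT and 136, 86.6, 107 and 148 in mNKO (log2 fold change 3.56, SE 0.23, adjusted p = 3.05e-06), and the slow-fibre pump Atp2a2 rose with a log2 fold change of 1.9 while the fast-fibre pump Atp2a1 fell (log2 fold change -0.68, and -0.16, not called, under total counts). Jph1, which tethers the reticulum to the T-tubule, fell (log2 fold change -1.19). Against 28.6% higher and 24.5% lower of all genes (51.6% and 7.05% under total counts), of 14 genes of this machinery, 3 rose and 6 fell, with a median log2 fold change of -0.38 that became 0.15 under total counts, where 6 rose and 2 fell.

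Sarcomere scaffold genes moved both ways, and more fell than rose with TMM scaling but not with total counts. All genes tested had 51.6% higher and 7.05% lower with total counts, and a median log2 fold change of 0.54. Of 42 genes of the Z disc, M band and filament scaffold, 11 rose and 22 fell, with a median log2 fold change of -0.46 that became 0.06 under total counts, where 17 rose and 11 fell. The rising members included Actn2, the Z-disc crosslinker of all fibre types, at 178, 163, 178 and 215 CPM in WT and 697, 474, 816 and 957 in mNKO (log2 fold change 2.01, SE 0.21, adjusted p = 2.92e-05), Lmod2, an actin filament elongation factor best known from heart (log2 fold change 2.92), Myoz2, the slow-fibre calsarcin (log2 fold change 2.91), and Csrp3, muscle LIM protein (log2 fold change 3.17, and 3.97 without WT replicate 4). Falling members included Cmya5, a costamere and reticulum scaffold, at 2565, 1462, 2074 and 1516 CPM in WT and 664, 716, 675 and 454 in mNKO (log2 fold change -1.6, SE 0.22, adjusted p = 0.000146), Xirp2, an actin-binding repeat protein (log2 fold change -1.25), and Unc45b, the myosin chaperone (log2 fold change -1.25). Xirp1, a relative of Xirp2, rose (log2 fold change 1.35). The groups were apart for each of these 8 genes. The slow troponin genes Tnnc1 and Tnnt1 and the embryonic and atrial light chain Myl4 were among the 10 rises with the smallest p, and Myl4 was at 3.2, 4.62, 4.35 and 4.02 CPM in WT and 249.6, 197, 143 and 308 in mNKO (log2 fold change 5.79, SE 0.27, adjusted p = 8.75e-07).

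Ankyrin-repeat genes also moved both ways. Of 48 genes with Ankrd or Asb symbols, 7 rose and 21 fell, with a median log2 fold change of -0.44 that became 0.08 under total counts, where 13 rose and 10 fell. All genes tested had 28.6% higher and 24.5% lower with TMM, and 51.6% and 7.05% with total counts. The median of all genes was 0.01 and 0.54, so this family lay below it with both scalings. Asb2, which encodes a muscle subunit of cullin ubiquitin ligases that targets filamins, was at 949, 759, 914 and 872 CPM in WT and 170.1, 233, 168 and 194 in mNKO (log2 fold change -2.19, SE 0.16, adjusted p = 4.62e-06). Asb10 (log2 fold change -1.75) and Asb4 (log2 fold change -3.8) also fell. Ankrd1, a stress-inducible titin-binding protein, went the other way, at 4.57, 7.72, 8.03 and 6.48 CPM in WT and 287, 303, 137 and 137 in mNKO (log2 fold change 5.01, SE 0.35, adjusted p = 9.26e-06).

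Genes for membrane excitability included some of the strongest falls. Kcnab1 (chromosome 3, 65109384 to 65378223), an auxiliary subunit of voltage-gated potassium channels, was at 14.4, 13.3, 17.8 and 7.8 CPM in WT and 0.532, 0.727, 0.575 and 0.598 in mNKO (log2 fold change -4.46, SE 0.28, adjusted p = 2.51e-06), among the 3 falls with the smallest p. Auxiliary subunits of calcium channels fell too. Cacng7 was at 41.7, 38.1, 37.7 and 41.7 CPM in WT and 9.09, 8.42, 11.3 and 8.03 in mNKO (log2 fold change -2.11, SE 0.14, adjusted p = 2.79e-06), and Cacna2d4 had a log2 fold change of -3.67. The muscle sodium channel Scn4a fell by 1.18 on the log2 scale and its partner Scn4b by 1.53. The potassium channels Kcnn1 and Kcnma1 fell by 1.14 and 1.8. The rise with the smallest p in the list was Fxyd5, a regulator of the sodium pump, at 11.9, 12, 9.56 and 16.7 CPM in WT and 96, 80.6, 60.3 and 123 in mNKO (log2 fold change 2.84, SE 0.24, adjusted p = 1.28e-05). No mNKO library of Kcnab1, Cacng7 or Fxyd5 lay within the WT range. Of 53 ion channel and pump genes, 19 rose and 17 fell, with a median log2 fold change of 0.17 (27 and 14 under total counts). Of all genes tested, 28.6% rose and 24.5% fell (51.6% and 7.05% under total counts). Rises thus outnumbered falls in this list, although most of its genes named here fell.

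**Figure D3:**
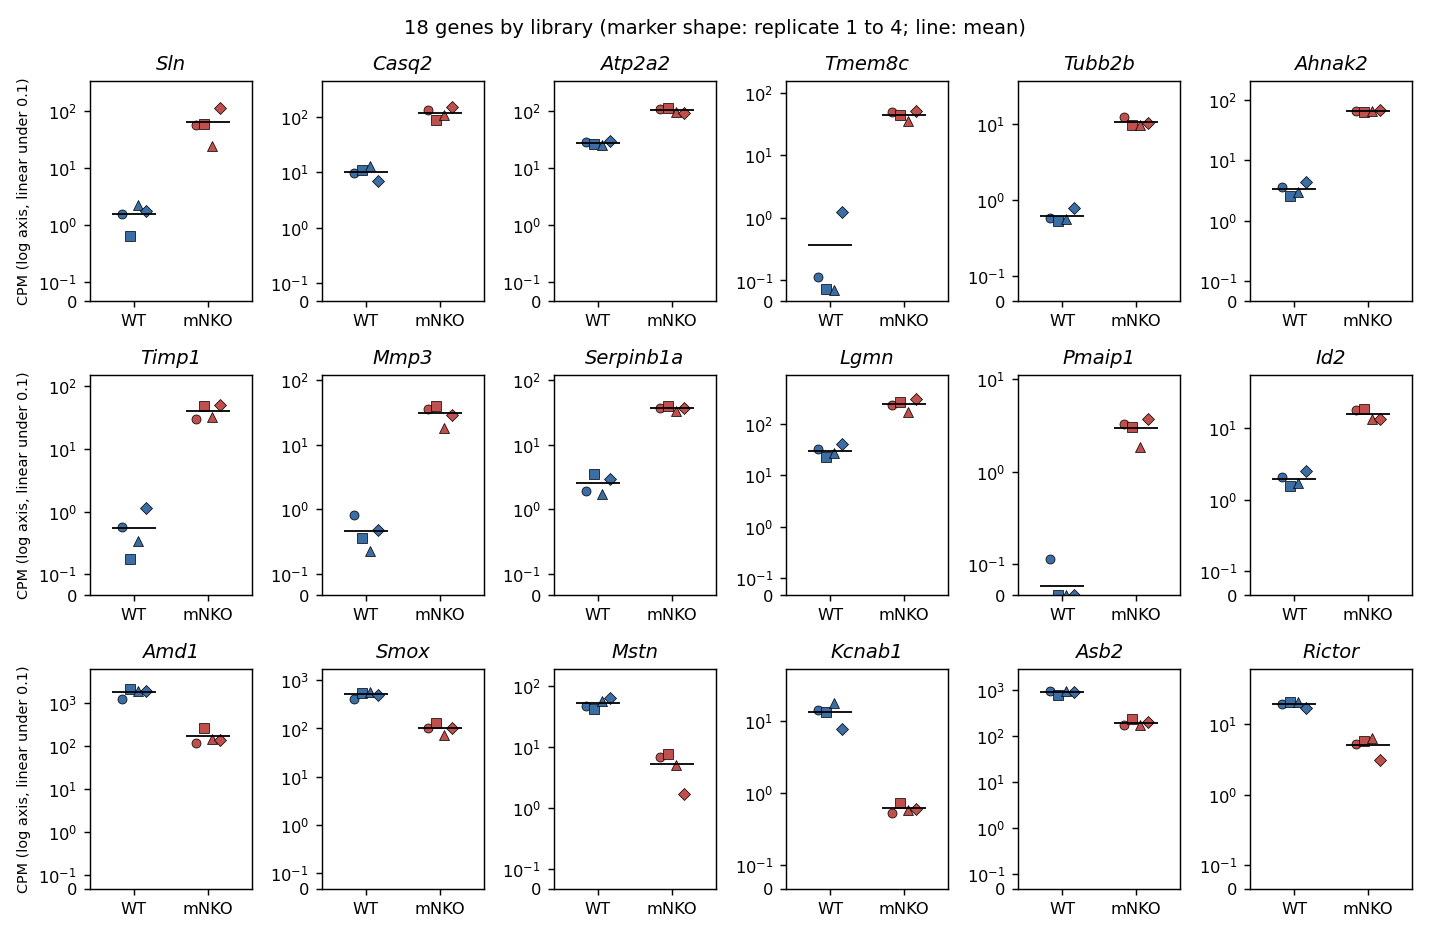
CPM of 18 genes in each of the 4 WT (blue) and 4 mNKO (red) libraries on a log axis that is linear under 0.1, with 1 symbol per replicate and a line at the group mean. Groups are separate for all 18 genes, of which Amd1, Smox, Mstn, Kcnab1, Asb2 and Rictor are lower and the other 12 higher in mNKO.

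Cytoskeletal genes outside the sarcomere rose more often than they fell. Of 43 actin cytoskeleton genes, 33 rose and 4 fell, with a median log2 fold change of 1.36. The rises with the smallest p were the membrane linkers moesin and ezrin. Msn was at 41.4, 41.9, 39.5 and 39.7 CPM in WT and 162, 145, 134 and 151 in mNKO (log2 fold change 1.86, SE 0.11, adjusted p = 1.68e-06). Ezr was at 1.31, 1.81, 1.02 and 1.56 CPM in WT and 14.1, 11.9, 13.1 and 13 in mNKO (log2 fold change 3.19, SE 0.19, adjusted p = 1.68e-06). For both, the 4 mNKO libraries lay close together and well above WT. Calponin Cnn3 (log2 fold change 1.67), transgelin Tagln2 (log2 fold change 2.31) and the actin recycling factor Cap1 (log2 fold change 1.62) rose, while the profilin Pfn2 fell by 1.12 on the log2 scale. Cap2, a relative of Cap1 expressed in striated muscle, also fell (log2 fold change -0.58, and -0.06, not called, under total counts), as did the linker Rdx, or radixin (log2 fold change -0.82, and -0.3, not called, under total counts).

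Tubulin genes moved in opposite directions by isotype. Tubb2b was at 0.572, 0.526, 0.565 and 0.78 CPM in WT and 12.2, 9.75, 9.73 and 10.3 in mNKO (log2 fold change 4.09, SE 0.2, adjusted p = 8.75e-07). Tubb6 was at 7.72, 10.1, 7.18 and 14.5 CPM in WT and 131, 124, 89 and 98.5 in mNKO (log2 fold change 3.49, SE 0.24, adjusted p = 4.19e-06). Every mNKO library was above every WT library for both. Tubb2a, Tuba1a and the microtubule protein Map1a rose with log2 fold changes of 2.24, 2.04 and 2.8. Against them, Tuba8 was at 417, 512, 458 and 539 CPM in WT and 146, 205, 162 and 186 in mNKO (log2 fold change -1.46, SE 0.15, adjusted p = 2.75e-05), and Tuba4a and the microtubule-associated Mapt fell by 1.07 and 1.23. Of 27 tubulins and partners, 15 rose and 5 fell, with a median log2 fold change of 0.47 (18 and 3 under total counts). Tubulin genes share long stretches of sequence, so reads may be split among them. Of 28 kinesin motor genes, 15 rose and 6 fell, with a median log2 fold change of 0.93 (17 and 3 under total counts). The spindle motor Kif11 rose (log2 fold change 2.74), and the cargo motors Kif3c and Kif1c fell by 1.78 and 1.38.

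Genes of membrane repair and of myoblast fusion rose. Annexins and S100 proteins bind calcium at damaged membranes. Ahnak2, a very large scaffold found at the muscle membrane, had the smallest p of all 13140 genes, at 3.66, 2.57, 2.94 and 4.32 CPM in WT and 64.9, 61.8, 65.3 and 67.5 in mNKO (log2 fold change 4.26, SE 0.17, adjusted p = 3.96e-07). Anxa2 (log2 fold change 2.85), Anxa4 (log2 fold change 2.31), Anxa5 (log2 fold change 2.12) and S100a11 (log2 fold change 2.02) followed. Of 34 genes of this list, 21 rose and 1 fell, with a median log2 fold change of 0.6. The falling member was Capn3, the fibre calpain whose loss causes limb-girdle dystrophy, at 141, 137, 139 and 123 CPM in WT and 70.9, 71, 64.6 and 55.1 in mNKO (log2 fold change -1.05, SE 0.12, adjusted p = 5.08e-05).

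Fusion of myoblasts into fibres needs a few membrane proteins that resting muscle hardly makes. Tmem8c (chromosome 2, 27061636 to 27072179), now called Mymk and encoding myomaker, was at 0.114, 0.0585, 0.0565 and 1.26 CPM in WT and 48.7, 43.4, 35.5 and 51.2 in mNKO (log2 fold change 6.91, SE 0.63, adjusted p = 4.43e-05). WT replicate 4 alone held most of the WT signal, and without it the log2 fold change was 9.07. Ncam1 (log2 fold change 2.62), Cdh2, or N-cadherin (log2 fold change 2.69), the engulfment adaptor Elmo1 (log2 fold change 1.81) and Myof, myoferlin (log2 fold change 2.57), rose as well. Of 16 fusion genes tested, 12 rose and 2 fell, with a median log2 fold change of 1.08. The larger of the falls was the melanocortin receptor Mc5r (log2 fold change -3.04, and -3.75 without mNKO replicate 3). Of 25 satellite cell and Notch pathway genes, 11 rose and 3 fell, with a median log2 fold change of 0.46 (18 and 0 under total counts). Rising members were the chemokine receptor Cxcr4 (log2 fold change 2.73), the repressor partner Hes6 (log2 fold change 1.63), Vcam1 (log2 fold change 1.97) and Notch2 (log2 fold change 1.13).

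Enzymes that remodel the matrix rose, with 1 fall among them. Of 40 matrix proteases and inhibitors, 29 rose and 1 fell, with a median log2 fold change of 1.7. Timp1, an inhibitor of matrix metalloproteinases, was at 0.572, 0.175, 0.339 and 1.14 CPM in WT and 30.2, 47.8, 32.4 and 51 in mNKO (log2 fold change 6.17, SE 0.4, adjusted p = 5.93e-06, and 6.77 without WT replicate 4). The stromelysin Mmp3 was at 0.8, 0.351, 0.226 and 0.48 CPM in WT and 35.3, 40.1, 17.9 and 28.8 in mNKO (log2 fold change 6.02, SE 0.37, adjusted p = 3.08e-06). Each was low in WT, and all mNKO libraries lay far above. The gelatinase Mmp2 (log2 fold change 2.35), its activator Mmp14 (log2 fold change 2.63) and the serpin Serpinf1 (log2 fold change 2.12) also rose, and the shedding protease Adam9 was the 1 fall (log2 fold change -0.8, and -0.28, not called, under total counts). Of 15 serpins tested, 11 rose and 0 fell, with a median log2 fold change of 2.02. Serpinb1a had the smallest p of them, at 1.89, 3.51, 1.7 and 2.94 CPM in WT and 36.8, 40.2, 32.7 and 36.4 in mNKO (log2 fold change 3.86, SE 0.22, adjusted p = 1.31e-06). Of 14 ADAMTS proteases, 10 rose and 0 fell, with a median log2 fold change of 1.68. The rising genes of the list of matrix proteases and inhibitors include some that carry a palindromic letter pattern near their start that the AP-1 factors are known to bind. The 160 bases before the start of 3 of them are given 5′ to 3′ on the gene's strand, from RefSeq on GRCm38.p6, with every match of TGANTCA (searched on both strands, N any base) in capitals, to show where the letters lie in genes that move together. Mmp3 lies at chr9:7445662-7445821 on the plus strand, Mmp13 (log2 fold change 5.01, and 6.35 without WT replicate 4) at chr9:7272354-7272513 on the plus strand, and Plaur, the urokinase receptor (log2 fold change 3.96), at chr7:24462323-24462482 on the plus strand (Mmp13 and Plaur were named after their values were seen).
Mmp3: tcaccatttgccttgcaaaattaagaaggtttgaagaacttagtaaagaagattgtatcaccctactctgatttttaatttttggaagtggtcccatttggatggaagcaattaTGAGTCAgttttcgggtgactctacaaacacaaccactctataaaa
Mmp13: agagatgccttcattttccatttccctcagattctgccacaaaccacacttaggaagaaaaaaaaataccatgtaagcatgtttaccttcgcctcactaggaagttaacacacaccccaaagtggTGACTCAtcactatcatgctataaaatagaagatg
Plaur: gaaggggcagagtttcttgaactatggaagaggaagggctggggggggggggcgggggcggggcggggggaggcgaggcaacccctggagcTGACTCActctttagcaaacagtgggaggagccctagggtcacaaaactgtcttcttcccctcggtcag
The matches end 39, 28 and 62 bases before the start. The RefSeq table held a window for 17 of the 29 rising genes of the list, and 3 of the 17 held these letters. The 3 genes shown are those 3, so they were picked for the letters. Of all 27025 genes in the table, 4.6% held them over the same 160 bases, counted on the first window listed per gene. A match describes the letters and not a site in use. Only 77.9% of the genes tested had a window, under the 80% set for comparing shares between gene sets, so the shares of a list and of all genes were not compared.

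Genes that build the matrix and cross-link it moved with them. Of 24 collagen-processing genes, 21 rose and 0 fell, with a median log2 fold change of 1.82. The collagen chaperone Serpinh1 was at 52.7, 67.5, 48.2 and 67.2 CPM in WT and 245, 286, 176 and 301 in mNKO (log2 fold change 2.1, SE 0.19, adjusted p = 1.52e-05). Plod2, a lysyl hydroxylase that sets the kind of crosslink, was at 1.94, 2.86, 1.98 and 1.62 CPM in WT and 13, 15.6, 9.08 and 14.1 in mNKO (log2 fold change 2.61, SE 0.23, adjusted p = 1.25e-05). Crtap (log2 fold change 1.88) and Fkbp10 (log2 fold change 2.37), which fold collagen, and the fibroblast protease Fap (log2 fold change 1.77) rose too. Of 28 proteoglycan and hyaluronan genes, 18 rose and 0 fell, with a median log2 fold change of 1.39. Biglycan, Bgn, was at 51.3, 40.8, 29.2 and 64.7 CPM in WT and 736, 476, 461 and 961 in mNKO (log2 fold change 3.82, SE 0.32, adjusted p = 1.52e-05). The hyaluronan receptor Cd44 was at 4.74, 7.37, 7.12 and 11.8 CPM in WT and 90.2, 104, 57.5 and 97.7 in mNKO (log2 fold change 3.49, SE 0.29, adjusted p = 1.39e-05). WT and mNKO ranges were apart for the 4 genes given by library. Markers of fibro-adipogenic progenitors rose 8 of 10 in the same libraries, and their part in these changes was not tested.

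Basement membrane genes moved in opposite directions by isoform. Of 24 basement membrane genes, 15 rose and 4 fell, with a median log2 fold change of 0.87. The common type IV chains rose, Col4a1 at 127, 115, 93.9 and 117 CPM in WT and 312, 285, 317 and 393 in mNKO (log2 fold change 1.53, SE 0.15, adjusted p = 1.98e-05) and Col4a2 with a log2 fold change of 1.42, as did Nid1 (log2 fold change 1.39), Col15a1 (log2 fold change 1.42) and Sparc (log2 fold change 1.73). The rarer type IV chain Col4a3 fell, at 2.74, 2.81, 2.21 and 2.4 CPM in WT and 0.409, 0.666, 1.11 and 0.598 in mNKO (log2 fold change -1.85, SE 0.32, adjusted p = 0.000571), together with the laminin chain Lamc3 (log2 fold change -2.47, and -3.39 without mNKO replicate 3). Of 29 integrin and adhesion genes, 17 rose and 3 fell, with a median log2 fold change of 0.68. The fibronectin receptor chain Itga5 was at 6.97, 9.06, 6.5 and 7.56 CPM in WT and 44.8, 46, 32.8 and 46.7 in mNKO (log2 fold change 2.5, SE 0.16, adjusted p = 2.79e-06), and the leucocyte chains Itgam (log2 fold change 3.28) and Itgal (log2 fold change 2.74) rose. The chain Itga4 fell, at 33.7, 35.5, 34.3 and 31.3 CPM in WT and 17.4, 10.8, 10.4 and 14.8 in mNKO (log2 fold change -1.33, SE 0.17, adjusted p = 8.48e-05), and so did kindlin-2, Fermt2 (log2 fold change -1.1). For Col4a1 and Itga5 all mNKO libraries were the higher ones, and for Col4a3 and Itga4 the lower ones.

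Phagocyte genes rose almost throughout. Of 34 phagocyte receptor and oxidase genes, 32 rose and 0 fell, with a median log2 fold change of 3.37. The Fc receptor Fcgr2b was at 6.35, 3.51, 3.96 and 6.96 CPM in WT and 49.4, 63, 30.3 and 58.7 in mNKO (log2 fold change 3.28, SE 0.29, adjusted p = 1.98e-05), and the kinases Fgr (log2 fold change 3.6) and Lyn (log2 fold change 2.14) and the dead-cell receptor Axl (log2 fold change 1.9) rose. Trem2, a lipid receptor of macrophages, was at 0.343, 0.0585, 0.113 and 3.3 CPM in WT and 42.3, 27.4, 16.1 and 70.5 in mNKO (log2 fold change 5.37, SE 1.02, adjusted p = 0.00358). Most of its WT level lay in replicate 4, without which the log2 fold change was 7.77. Galectin-3, Lgals3, had the same pattern, 5.66, 2.51, 2.6 and 24.4 CPM in WT and 298, 199, 138 and 461 in mNKO (log2 fold change 4.97, SE 0.91, adjusted p = 0.00301, and 6.24 without WT replicate 4). Of fusion genes of giant cells and osteoclasts, Dcstamp rose (log2 fold change 6.13, SE 1.11, and 5.37 without mNKO replicate 4), and so did Atp6v0d2 (log2 fold change 5.43, and 9.08 without WT replicate 4). Dcstamp was at 0.0572, 0, 0.0565 and 0 CPM in WT and 2.82, 0.666, 0.821 and 5.58 in mNKO. Its fold thus rests on WT values at or near 0, and its size is uncertain. Of 7 Ms4a membrane genes, 7 rose and 0 fell, with a median log2 fold change of 3.41. Of 18 C-type lectin genes, 13 rose and 2 fell, with a median log2 fold change of 2.88 (14 and 0 under total counts).

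Lysosomal enzymes rose, and a few lysosome genes fell. Of 55 lysosome genes, 42 rose and 5 fell, with a median log2 fold change of 1.1. The protease Ctsb was at 378, 359, 345 and 431 CPM in WT and 1364, 1209, 930.5 and 1696 in mNKO (log2 fold change 1.78, SE 0.19, adjusted p = 3.2e-05). Lgmn, legumain, was at 31.6, 22.1, 26.4 and 40.3 CPM in WT and 235, 259.8, 169 and 298 in mNKO (log2 fold change 3, SE 0.23, adjusted p = 7.4e-06). In both the WT libraries lay below all mNKO libraries, with mNKO replicate 3 the lowest of its group. The hydrolases Glb1 (log2 fold change 2.6) and Ppt1 (log2 fold change 1.35) rose. Falling members were Tfeb, the transcription factor that drives lysosome genes, at 79, 73.9, 73.2 and 76.7 CPM in WT and 41.8, 43.7, 36.2 and 44.6 in mNKO (log2 fold change -0.87, SE 0.11, adjusted p = 7.84e-05), the cholesterol exporter Npc1 (log2 fold change -0.72, and -0.2, not called, under total counts), Laptm4b (log2 fold change -0.8, and -0.28, not called, under total counts) and the glycogen hydrolase Gaa (log2 fold change -0.64, and -0.13, not called, under total counts). Under total counts 1 of the 5 falls was called, Tfeb, with a log2 fold change of -0.35. Of 17 subunits of the proton pump that acidifies lysosomes, 7 rose and 0 fell, with a median log2 fold change of 0.25. Of 23 complement genes, 18 rose and 0 fell, with a median log2 fold change of 1.98. C1s (log2 fold change 1.73), C1ra (log2 fold change 1.98) and the inhibitor Serping1 (log2 fold change 2.02) had the smallest p among them with Itgam and the receptor Vsig4 (log2 fold change 4.45).

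Sensors of microbial and damage signals rose with cytokine receptors. Of 39 pattern recognition and inflammasome genes, 33 rose and 1 fell, with a median log2 fold change of 2.36. Tmem173, which encodes the DNA-sensing adaptor STING, was at 3.03, 3.45, 2.37 and 2.58 CPM in WT and 22.5, 29.7, 13.9 and 19.8 in mNKO (log2 fold change 2.91, SE 0.24, adjusted p = 9.84e-06). The inflammasome adaptor Pycard was at 0.4, 0.409, 0.452 and 0.6 CPM in WT and 4.62, 4.24, 3.04 and 5.93 in mNKO (log2 fold change 3.24, SE 0.3, adjusted p = 1.47e-05). Again mNKO replicate 3 was the lowest of its group, and still above all of WT. Caspase-1, Casp1 (log2 fold change 2.49), and the transcription factor Nfkb2 (log2 fold change 1.66) rose. Of 32 chemokine and cytokine receptor genes, 24 rose and 2 fell, with a median log2 fold change of 1.93. Il10rb (log2 fold change 2.12) and Ifngr1 (log2 fold change 1.14) rose, and the atypical receptor Ccrl2 fell, at 9.78, 9.94, 10.9 and 10.3 CPM in WT and 2.58, 2.48, 2.75 and 1.74 in mNKO (log2 fold change -2.09, SE 0.18, adjusted p = 1.05e-05). Of 16 TNF ligands and receptors, 10 rose and 1 fell, with a median log2 fold change of 1.29. Macrophage markers rose 9 of 9 in the same libraries, and their part in these counts was not tested.

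Most interferon-induced genes with Ifi or Ifit symbols rose, and most guanylate-binding proteins, another interferon-induced family, were not called. Of 18 genes with Ifi or Ifit symbols, 16 rose and 0 fell, with a median log2 fold change of 1.6. Ifitm3, a membrane protein that blocks virus entry, was at 21.9, 28.8, 23.5 and 28.9 CPM in WT and 74.6, 107, 70.3 and 93.9 in mNKO (log2 fold change 1.75, SE 0.16, adjusted p = 1.76e-05). Ifi47, an interferon-induced GTPase, was at 1.2, 1.05, 1.36 and 1.56 CPM in WT and 4.54, 11.4, 3.94 and 5.03 in mNKO (log2 fold change 2.26, SE 0.36, adjusted p = 0.000336). For Ifi47 the highest library was mNKO replicate 2. Of 8 guanylate-binding proteins, 2 rose and 1 fell, with a median log2 fold change of -0.13 that became 0.39 under total counts, where 3 rose and 0 fell. Of 11 interferon regulatory factors, 7 rose and 0 fell, with a median log2 fold change of 1.52. Irf7 (log2 fold change 2.15), Irf1 (log2 fold change 1.63) and Irf8 (log2 fold change 1.53) had the smallest p. Promoters of interferon-induced genes are known to hold repeats of GAAA, and the 160 bases before the start of 3 members are given in the same way, with matches of GAAANNGAAA on either strand in capitals. Ifit1 (log2 fold change 1.66) lies at chr19:34640729-34640888 on the plus strand, Ifit3 (log2 fold change 1.24) at chr19:34583369-34583528 on the plus strand, and Ifitm2 (log2 fold change 1.65) at chr7:140955962-140956121 on the minus strand (Ifit1 and Ifit3 were named after their values were seen).
Ifit1: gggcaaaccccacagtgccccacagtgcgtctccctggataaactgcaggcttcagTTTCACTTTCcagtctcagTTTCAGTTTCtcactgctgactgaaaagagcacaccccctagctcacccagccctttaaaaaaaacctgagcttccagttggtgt
Ifit3: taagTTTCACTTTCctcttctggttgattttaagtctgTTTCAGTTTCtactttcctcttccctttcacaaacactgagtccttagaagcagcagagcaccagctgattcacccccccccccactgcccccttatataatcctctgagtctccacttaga
Ifitm2: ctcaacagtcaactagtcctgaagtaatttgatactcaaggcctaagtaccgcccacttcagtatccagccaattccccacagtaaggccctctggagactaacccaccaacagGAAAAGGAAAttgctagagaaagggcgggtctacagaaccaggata
Ifit1 and Ifit3 each hold 2 matches, which end 75 and 94 bases and 112 and 146 bases before the start, and Ifitm2 holds 1, which ends 36 bases before it. A window was listed for 14 of the 16 rising genes and 4 of the 14 held the letters, among them the 3 shown, which were picked for the letters. Among all 27025 genes listed, 1.8% held them, and these shares were not compared either.

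Cell death genes rose on balance. Of 39 cell death genes, 26 rose and 5 fell, with a median log2 fold change of 0.93 (28 and 0 under total counts). Pmaip1, which encodes the BH3-only protein Noxa, was at 0.114, 0, 0 and 0 CPM in WT and 3.31, 3.09, 1.85 and 3.74 in mNKO (adjusted p = 2.25e-05, edgeR), and no fold is given because 3 of 4 WT libraries had no read. The TNF receptors Tnfrsf1a (log2 fold change 1.97) and Tnfrsf1b (log2 fold change 2.79), the necroptosis kinase Ripk3 (log2 fold change 2.23) and the death agonist Bid (log2 fold change 1.75) rose. Parp1, a nuclear enzyme that consumes NAD, fell at 54.9, 44.4, 53.7 and 43.6 CPM in WT and 33.1, 35.7, 33.1 and 31 in mNKO (log2 fold change -0.56, SE 0.12, adjusted p = 0.00212, and -0.04, not called, under total counts), as did Casp12 (log2 fold change -0.92, and -0.38, not called, under total counts). Under total counts none of the 5 falls was called (edgeR).

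Secreted and intracellular signalling genes moved in both directions with TMM scaling. Few of them fell with total counts, where few of all genes fell either. All genes tested were 28.6% higher and 24.5% lower with TMM, and 51.6% and 7.05% with total counts. Of 48 TGF-beta and BMP pathway genes, 17 rose and 8 fell, with a median log2 fold change of 0.25 (26 and 2 under total counts). Among ligands and antagonists, Tgfb1 was at 5.77, 4.38, 3.39 and 7.14 CPM in WT and 33.6, 20, 22.3 and 40.8 in mNKO (log2 fold change 2.5, SE 0.29, adjusted p = 6.91e-05), Fstl1 rose (log2 fold change 2.1), and so did Ltbp2 (log2 fold change 4.29, and 4.88 without WT replicate 4). Mstn (chromosome 1, 53061640 to 53068079), which encodes myostatin, the brake on muscle growth, was at 46.7, 42.3, 57.1 and 64.1 CPM in WT and 6.83, 7.51, 5.09 and 1.69 in mNKO (log2 fold change -3.32, SE 0.38, adjusted p = 0.000111). On the receptor side Acvr2a fell by 1.01 on the log2 scale, and the common mediator Smad4 also fell (log2 fold change -0.83, and -0.31, not called, under total counts). Id2, a target that blocks differentiation factors, rose, at 2.06, 1.52, 1.7 and 2.46 CPM in WT and 17.5, 18.3, 13.3 and 13.4 in mNKO (log2 fold change 3.01, SE 0.2, adjusted p = 3.07e-06).

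The Wnt list was close to all genes in its shares. Against 28.6% higher and 24.5% lower of all genes, of 36 Wnt pathway genes, 13 rose and 8 fell, with a median log2 fold change of 0.18 (18 and 3 under total counts). The ligand Wnt4 was at 43, 52.9, 48.3 and 44.6 CPM in WT and 9.74, 18.1, 6.53 and 8.47 in mNKO (log2 fold change -2.15, SE 0.27, adjusted p = 0.000132), and the receptor Fzd7 fell by 1.56, while the antagonist Sfrp1 (log2 fold change 2.33), the receptor Fzd1 (log2 fold change 1.83) and the target Wisp1 (log2 fold change 3.99) rose. Of 39 FGF, EGF, PDGF and VEGF genes, 16 rose and 3 fell, with a median log2 fold change of 0.36 (23 and 1 under total counts). Egf was at 39.8, 23.3, 34.4 and 27.5 CPM in WT and 4.58, 5.81, 4.07 and 2.29 in mNKO (log2 fold change -2.9, SE 0.27, adjusted p = 1.98e-05). Vegfa, the main vessel growth factor, was at 132, 150, 116 and 73.7 CPM in WT and 67.6, 47.8, 67.8 and 36.6 in mNKO (log2 fold change -1.1, SE 0.25, adjusted p = 0.00385, and -0.55, not called, under total counts). The Vegfa groups lay close, with WT replicate 4 only just above the highest mNKO library. The EGF family receptors Egfr (log2 fold change 1.21) and Erbb2 (log2 fold change 1.95) rose.

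In the insulin and IGF pathway, Rictor and glucose uptake genes fell while Igf1 and some IGF binding proteins rose. Of 39 genes of this pathway, 12 rose and 14 fell, with a median log2 fold change of 0.02 (18 and 6 under total counts). Among all genes tested, 28.6% rose and 24.5% fell. Rictor, the scaffold of mTORC2, was at 19.6, 20.3, 20.5 and 17 CPM in WT and 5.28, 5.81, 6.28 and 3.14 in mNKO (log2 fold change -1.91, SE 0.2, adjusted p = 2.75e-05). Tbc1d4, the Akt substrate that gates glucose transporter movement, fell by 1.14, and the transporter Slc2a4, or GLUT4, fell too (log2 fold change -0.8, and -0.28, not called, under total counts). Igf1 was at 20.1, 20.9, 19.2 and 19.8 CPM in WT and 43.8, 28.8, 54.3 and 48.9 in mNKO (log2 fold change 1.14, SE 0.18, adjusted p = 0.000297), and Igfbp7 (log2 fold change 1.28), Igfbp2 (log2 fold change 3.27) and the receptor adaptor Grb10 (log2 fold change 1.21) rose. Of 28 imprinted genes, 10 rose and 3 fell, with a median log2 fold change of 0.79 (21 and 2 under total counts). H19 (chromosome 7, 142575529 to 142578143), an imprinted non-coding RNA abundant in developing muscle, was at 350.5, 346, 314 and 486 CPM in WT and 7651, 2645, 1718 and 3019 in mNKO (log2 fold change 3.33, SE 0.45, adjusted p = 0.000247, and 2.72 without mNKO replicate 1), the largest gain in CPM of any gene. Mest (log2 fold change 2.48) and Cd81 (log2 fold change 1.06) rose, and the falls were Asb4, Slc38a4 (log2 fold change -1.76) and Snrpn (log2 fold change -0.84, and -0.3, not called, under total counts).

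Nuclear receptors and the list of homeobox and patterning genes had more falls than rises with TMM scaling but not with total counts, and Hox genes had more falls with both. With total counts 51.6% of all genes rose and 7.05% fell, and the median of all genes was 0.54. Of 36 nuclear receptors and coregulators, 3 rose and 18 fell, with a median log2 fold change of -0.4 that became 0.13 under total counts, where 9 rose and 5 fell. The retinoid X receptors Rxrg (log2 fold change -1.59) and Rxra (log2 fold change -1.19) fell. The 3 that rose were Vdr, the vitamin D receptor, at 0.114, 0.0585, 0.0565 and 0 CPM in WT and 1.02, 0.727, 0.698 and 1.15 in mNKO (log2 fold change 3.82, SE 0.56, adjusted p = 0.00018), Nr4a3 (log2 fold change 2.89, and 3.7 without WT replicate 2) and Rarg (log2 fold change 0.68). Of 58 homeobox and patterning genes, 16 rose and 21 fell, with a median log2 fold change of -0.16 that became 0.35 under total counts, where 20 rose and 11 fell. The share that rose with TMM was near the 28.6% of all genes, of which 24.5% fell. Tbx15 (log2 fold change -1.08), which specifies fast glycolytic fibres, fell, and Runx1, which is known to be induced in denervated muscle, was at 2.06, 1.4, 1.3 and 3.66 CPM in WT and 24.6, 31.8, 15.6 and 17.3 in mNKO (log2 fold change 3.41, SE 0.35, adjusted p = 4.68e-05). The mesenchymal factors Prrx2 (log2 fold change 3.17) and Meox1 (log2 fold change 2.64) also rose. Of 27 Hox genes, 0 rose and 9 fell, with a median log2 fold change of -0.47 that became 0.07 under total counts, where 1 rose and 3 fell. Hoxc10 had the smallest p of them (log2 fold change -1.04). Of 6 STAT factors, which carry cytokine signals to the nucleus, 5 rose and 1 fell, with a median log2 fold change of 0.77. The 1 fall was Stat5b, which relays growth hormone signals, at 261, 188, 241 and 254 CPM in WT and 85.9, 101, 80.8 and 71.4 in mNKO (log2 fold change -1.48, SE 0.15, adjusted p = 2.74e-05).

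Polyamine genes held some of the largest falls among abundant genes. Spermidine and spermine are made from ornithine with propylamine groups that come from decarboxylated S-adenosylmethionine. Amd1 (chromosome 10, 40287458 to 40302186), the decarboxylase that supplies them, was at 1219.8, 2104, 1912 and 1944 CPM in WT and 119, 267, 145 and 138 in mNKO (log2 fold change -3.43, SE 0.29, adjusted p = 1.2e-05). Its near-identical copy Amd2 (log2 fold change -4.69) can take its reads, so the pair is best read together. The spermine synthase Sms was at 229, 273, 254 and 323 CPM in WT and 126, 143, 107 and 111 in mNKO (log2 fold change -1.15, SE 0.15, adjusted p = 0.000102). The spermine oxidase Smox was at 417, 558, 584 and 494 CPM in WT and 103, 132, 72.9 and 104 in mNKO (log2 fold change -2.32, SE 0.19, adjusted p = 1.05e-05). All 3 genes were lower in each mNKO library than in any WT library. Srm, the spermidine synthase (log2 fold change 1.24), Sat1, which acetylates polyamines for export, at 9.78, 12.7, 8.59 and 14 CPM in WT and 35.4, 45.1, 28.4 and 46.7 in mNKO (log2 fold change 1.78, SE 0.2, adjusted p = 4.51e-05), and Azin1 (log2 fold change 0.69) rose. Of 15 polyamine genes, 3 rose and 6 fell, with a median log2 fold change of -0.12 that became 0.41 under total counts, where 8 rose and 5 fell. Amd1, Amd2, Smox and Sms had log2 fold changes of -2.91, -4.21, -1.8 and -0.64 under total counts.

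In amino acid, purine and phosphagen metabolism some abundant fibre enzymes fell and other enzymes rose. Of 43 amino acid and one-carbon genes, 10 rose and 15 fell, with a median log2 fold change of -0.24 that became 0.29 under total counts, where 17 rose and 3 fell. The alanine transaminase Gpt2 was at 220.4, 172, 264 and 239.7 CPM in WT and 67.3, 96, 53.8 and 61.2 in mNKO (log2 fold change -1.69, SE 0.2, adjusted p = 5.65e-05), and the branched-chain dehydrogenase subunit Dbt fell by 1.29. The proline synthesis enzyme Aldh18a1 (log2 fold change 1.83), the serine synthesis enzyme Psat1 (log2 fold change 2.04) and the mitochondrial folate enzyme Mthfd1l (log2 fold change 3.02) rose, and so did Nnmt, which methylates nicotinamide, at 2.92, 1.58, 1.13 and 3.18 CPM in WT and 4.95, 9.02, 10.8 and 6.03 in mNKO (log2 fold change 1.8, SE 0.35, adjusted p = 0.00145). The ranges of Gpt2 lay far apart and those of Nnmt less so. Of 34 purine and phosphagen genes, 15 rose and 10 fell, with a median log2 fold change of 0.22 (20 and 2 under total counts). Ckm fell by 1.11, whereas Gatm, the first enzyme of creatine synthesis, was at 5.43, 8.94, 4.64 and 5.22 CPM in WT and 36.2, 33.5, 29 and 31.5 in mNKO (log2 fold change 2.42, SE 0.2, adjusted p = 1e-05), and the nucleoside phosphorylase Pnp rose (log2 fold change 1.9). Of 20 pentose phosphate and NADPH genes, 8 rose and 4 fell, with a median log2 fold change of 0.38 (12 and 1 under total counts). The mitochondrial malic enzyme Me2, which mainly uses NAD and not NADP, had the smallest p in that list, at 3.37, 3.62, 3.34 and 3.36 CPM in WT and 12.3, 10.5, 9.9 and 11.5 in mNKO (log2 fold change 1.69, SE 0.14, adjusted p = 1.07e-05). The malic enzyme Me3 was among the falls.

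Transporter and iron genes changed in both directions with TMM scaling. Of 29 amino acid transporters, 12 rose and 3 fell, with a median log2 fold change of 0.66 (15 and 1 under total counts). The light chain Slc7a7 (log2 fold change 2.31), the heavy chain Slc3a2 (log2 fold change 1.02) and Slc38a1 (log2 fold change 3.68, and 4.36 without WT replicate 4) rose, and the aromatic amino acid carrier Slc16a10 fell (log2 fold change -1.02). Of 40 sugar, lactate and lipid transport genes, 11 rose and 7 fell, with a median log2 fold change of 0.23 (22 and 2 under total counts). With TMM, both shares lay below the 28.6% higher and 24.5% lower of all genes tested. Slc2a3, the glucose transporter GLUT3, was at 13.1, 16.1, 12.2 and 12.6 CPM in WT and 2.46, 3.94, 2.26 and 2.44 in mNKO (log2 fold change -2.3, SE 0.2, adjusted p = 1.25e-05). The lipoprotein receptor Vldlr fell by 1.49, and Lrp1 (log2 fold change 1.93) and the cholesterol exporter Abca1 (log2 fold change 1) rose. Of 33 iron and haem genes, 6 rose and 8 fell, with a median log2 fold change of -0.04 that became 0.51 under total counts, where 16 rose and 2 fell. With TMM, these shares too were no higher than those of all genes. Ferritin light chain, Ftl1, was at 193, 219, 172 and 355 CPM in WT and 1048, 782, 649.9 and 1513 in mNKO (log2 fold change 2.09, SE 0.31, adjusted p = 0.000279). The iron exporter Slc40a1, ferroportin, was at 22.5, 13.2, 42.2 and 25.6 CPM in WT and 7.49, 6.42, 6.53 and 4.34 in mNKO (log2 fold change -2.06, SE 0.33, adjusted p = 0.000517). Ftl1 was thus higher, and Slc40a1 lower, in all mNKO libraries. Across all 221 solute carriers tested, 70 rose and 44 fell, with a median log2 fold change of 0.23 (123 and 16 under total counts). These shares were near the 28.6% higher and 24.5% lower of all genes.

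Genes of the secretory pathway rose, and genes of mitochondrial upkeep and of translation fell more often than they rose with TMM scaling but not with total counts. With total counts 51.6% of all genes rose and 7.05% fell, with a median log2 fold change of 0.54. The medians of the mitochondrial and translation lists below stayed under that of all genes with either scaling. Of 52 genes of the endoplasmic reticulum and secretory pathway, 35 rose and 2 fell, with a median log2 fold change of 0.65. Pdia3, a disulfide isomerase, was at 53.4, 61.7, 55.9 and 76.8 CPM in WT and 213, 248, 190.3 and 297 in mNKO (log2 fold change 1.94, SE 0.17, adjusted p = 1.41e-05), and the translocon pore Sec61a1 (log2 fold change 1.45) and the chaperone partner Sdf2l1 (log2 fold change 2.34) rose. Of 48 genes for mitochondrial protein import, proteases and genome upkeep, 1 rose and 22 fell, with a median log2 fold change of -0.31 that became 0.21 under total counts, where 7 rose and 3 fell. Pink1, the kinase that marks damaged mitochondria, was at 909, 977, 946 and 728 CPM in WT and 342, 447, 434 and 403 in mNKO (log2 fold change -1.13, SE 0.15, adjusted p = 0.000118), Tfb2m, a mitochondrial transcription factor, fell by 1.04, and the protease Htra2 was the 1 rise (log2 fold change 0.83). Of 75 mitochondrial ribosomal protein genes, 0 rose and 21 fell, with a median log2 fold change of -0.24 that became 0.28 under total counts, where 26 rose and 1 fell. The share that fell with TMM lay near the 24.5% of all genes tested, of which 28.6% rose. Of 34 aminoacyl-tRNA synthetases, 0 rose and 14 fell, with a median log2 fold change of -0.29 that became 0.23 under total counts, where 9 rose and 0 fell. Of 53 translation initiation factor genes, 5 rose and 21 fell, with a median log2 fold change of -0.25 that became 0.26 under total counts, where 19 rose and 2 fell. Of 39 mitochondrial carriers, 4 rose and 16 fell, with a median log2 fold change of -0.29 that became 0.22 under total counts, where 11 rose and 3 fell. Slc25a51, the carrier that brings NAD into mitochondria, was at 70.1, 71.8, 69.3 and 64.1 CPM in WT and 51, 48.8, 45.9 and 38.5 in mNKO (log2 fold change -0.58, SE 0.12, adjusted p = 0.00156, and -0.05, not called, under total counts).

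Nuclear regulators also fell more often than they rose with TMM scaling and the reverse with total counts. All genes tested were 28.6% higher and 24.5% lower with TMM, and 51.6% and 7.05% with total counts. Of 299 genes with Zfp symbols, 26 rose and 104 fell, with a median log2 fold change of -0.29 that became 0.24 under total counts, where 78 rose and 31 fell. Zfp652 had the smallest p, at 167, 139.7, 159.8 and 135 CPM in WT and 46.6, 54.9, 52.9 and 45.1 in mNKO (log2 fold change -1.59, SE 0.12, adjusted p = 8.6e-06). Its mNKO values spanned a narrow range below all WT values. Zfp703 (log2 fold change 1.83) and the RNA-decay factors Zfp36 (log2 fold change 1.74) and Zfp36l1 (log2 fold change 0.96) rose. Of 58 chromatin enzymes, 11 rose and 20 fell, with a median log2 fold change of -0.15 that became 0.38 under total counts, where 27 rose and 4 fell. The lysine methyltransferase Setd7 was at 483, 375, 379 and 279 CPM in WT and 137, 142, 122 and 74.4 in mNKO (log2 fold change -1.67, SE 0.23, adjusted p = 0.000129), and Uhrf1 (log2 fold change 2.71, and 3.66 without WT replicate 4) and Dnmt1 (log2 fold change 0.7), which copy DNA methylation, rose. Of 45 splicing regulators, 10 rose and 14 fell, with a median log2 fold change of 0.07 (29 and 2 under total counts). Rbfox1 was at 363, 320.3, 370.5 and 355 CPM in WT and 152, 178, 127 and 111 in mNKO (log2 fold change -1.31, SE 0.16, adjusted p = 6.86e-05), Mbnl1 fell by 0.89, and Ptbp1, a repressor of muscle exons, rose at 16.7, 12.5, 13.1 and 12.4 CPM in WT and 34.4, 32.5, 30.5 and 37.3 in mNKO (log2 fold change 1.3, SE 0.13, adjusted p = 2.84e-05), as did its relative Ptbp3 (log2 fold change 1.56). Of 40 nucleolar and ribosome biogenesis genes, 4 rose and 7 fell, with a median log2 fold change of -0.01 that became 0.5 under total counts, where 23 rose and 0 fell. Of 37 DnaJ chaperones, 3 rose and 15 fell, with a median log2 fold change of -0.16 that became 0.36 under total counts, where 17 rose and 4 fell. Of 44 ubiquitin-specific proteases, 5 rose and 16 fell, with a median log2 fold change of -0.2 that became 0.32 under total counts, where 21 rose and 3 fell.

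**Figure D4:**
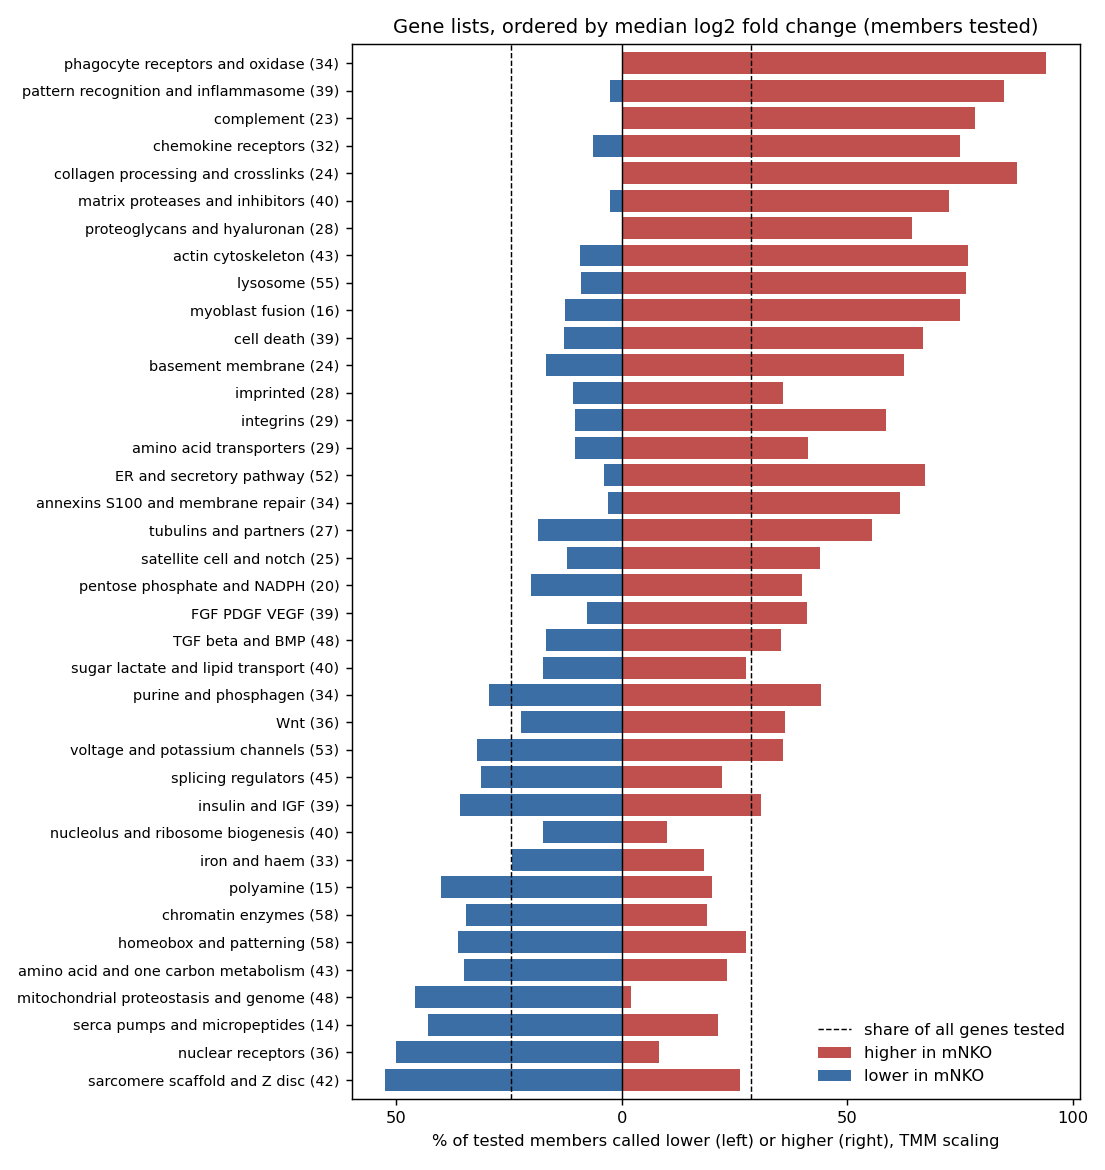
Share of the tested members of 38 gene lists that were called lower (blue, left) or higher (red, right) in mNKO with TMM scaling, ordered by the list's median log2 fold change, with dashed lines at the shares of all 13140 genes (24.5% and 28.6%). Phagocyte receptors lie at the top with 32 of 34 higher and sarcomere scaffold genes at the bottom with 22 of 42 lower.

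Strong changes of single genes also fell outside these lists. Of rises, Prune2 was at 0.972, 0.468, 0.622 and 1.5 CPM in WT and 62.6, 37.6, 39.3 and 51.5 in mNKO (log2 fold change 5.74, SE 0.32, adjusted p = 1.68e-06), Glipr1 at 0.114, 0.117, 0.452 and 0.48 CPM in WT and 27.7, 18.6, 16.1 and 23.6 in mNKO (log2 fold change 6.18, SE 0.36, adjusted p = 1.68e-06). The tight-junction gene Cldn2 was at 0, 0, 0.17 and 0.06 CPM in WT and 4.42, 3.21, 3.53 and 4.69 in mNKO (log2 fold change 5.95, SE 0.54, adjusted p = 1.36e-05, and 7.26 without WT replicate 3). In WT these 3 reached at most 1.5 CPM. The cartilage matrix gene Cilp (log2 fold change 4.04), the kinase Dclk1 (log2 fold change 4.1), the aldo-keto reductase Akr1b8 (log2 fold change 3.02), the tubulin-binding Tppp3 (log2 fold change 2.31) and Ccdc141 (log2 fold change 3.59) were among the rises with the smallest p. Of falls, the methyltransferase Mettl21c, a protein of muscle fibres, was at 50.3, 111, 107 and 92.5 CPM in WT and 9.7, 14.2, 7.39 and 8.67 in mNKO (log2 fold change -3.18, SE 0.29, adjusted p = 2.35e-05), the GTPase Rasd2 at 124, 81.1, 198 and 149 CPM in WT and 7.33, 24.8, 14.4 and 3.69 in mNKO (log2 fold change -3.47, SE 0.59, adjusted p = 0.00168). Gdap1, a protein of mitochondrial fission, was at 45.7, 62.4, 39.1 and 24.7 CPM in WT and 3.64, 6.48, 3.37 and 2.29 in mNKO (log2 fold change -3.46, SE 0.36, adjusted p = 6.47e-05). Slc30a2, a zinc exporter (log2 fold change -3.43), Fgfbp1 (log2 fold change -3.75), the GTPase Rhou (log2 fold change -2.16) and the hyaluronan receptor Stab2 (log2 fold change -2.85) fell. The groups were apart for each of these genes.

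Non-coding and switched genes added a small number of large changes. Of 371 lincRNA, antisense and processed transcript genes, 62 rose and 96 fell, with a median log2 fold change of -0.23 that turned to 0.29 under total counts, where 116 rose and 43 fell. With TMM the share that fell was near the 24.5% of all genes, and the share that rose was below their 28.6%. The non-coding gene 2310065F04Rik was at 166, 273, 259 and 178 CPM in WT and 19.9, 25.4, 17.1 and 16.4 in mNKO (log2 fold change -3.48, SE 0.22, adjusted p = 2.49e-06), and 2900079G21Rik rose (log2 fold change 4.92). Antisense genes cannot be told from their partners because the counting is not stated to use strand. In all, 162 genes had reads in every mNKO library and none in any WT library, of which 6 passed the filter on low counts, and 18 had the reverse pattern, none of which did. The most-read of the first kind outside immunoglobulins were Npy, neuropeptide Y, with 50, 9, 16 and 95 reads, P4ha3, a collagen prolyl hydroxylase, with 48, 23, 44 and 49, and Saa3, an acute-phase protein, with 23, 54, 10 and 34. Against a floor of 3 reads per WT library they were at least 16.6-fold, 16-fold and 11.8-fold higher. Of the reverse kind, Exph5 had 37, 10, 42 and 13 reads in WT and was at least 7.24-fold lower in mNKO, counting error only.

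Among the genes that varied most between mNKO libraries were many known from fat cells, and these also varied widely among WT. The SD of log2 CPM was 2.6 in mNKO and 2.67 in WT for Plin1, and 2.19 and 2.33 for Adipoq. It was larger in mNKO for Nnat (3.32 and 2.44) and Lep (2.61 and 2.17). The median SD of log2 CPM over 8868 genes at 5 CPM or more was 0.2 in WT and 0.22 in mNKO. Of the 15 genes that varied most among mNKO libraries, 14 were not called between the groups. Adipoq, adiponectin, was at 71, 12.1, 1.92 and 49.8 CPM in WT and 18.4, 27.9, 135 and 3.29 in mNKO (log2 fold change 0.46, SE 1.28, adjusted p = 0.789), Plin1, the coat of fat droplets, at 24.2, 1.87, 0.339 and 14.4 CPM in WT and 4.71, 4.36, 33 and 0.299 in mNKO (log2 fold change 0.07, SE 1.4, adjusted p = 0.972). Nnat, neuronatin, was at 27.8, 2.57, 0.396 and 6.72 CPM in WT and 0.286, 5.21, 83.6 and 1.25 in mNKO (log2 fold change 1.27, SE 1.72, adjusted p = 0.567). For each of these 3 genes mNKO replicate 3 was highest and WT replicate 1 next, and the groups overlapped. The 1 called gene was Socs3, the feedback inhibitor of cytokine signals, at 2.74, 3.57, 3.9 and 3.18 CPM in WT and 101, 182, 21 and 6.88 in mNKO (log2 fold change 4.53, SE 1.06, adjusted p = 0.00971, and 3.68 without mNKO replicate 2), with a narrow range in WT and a wide one in mNKO. Red blood cell markers were also uneven, at 2017 CPM in mNKO replicate 1 and 206 to 384.5 in the other mNKO libraries.

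**Figure D5:**
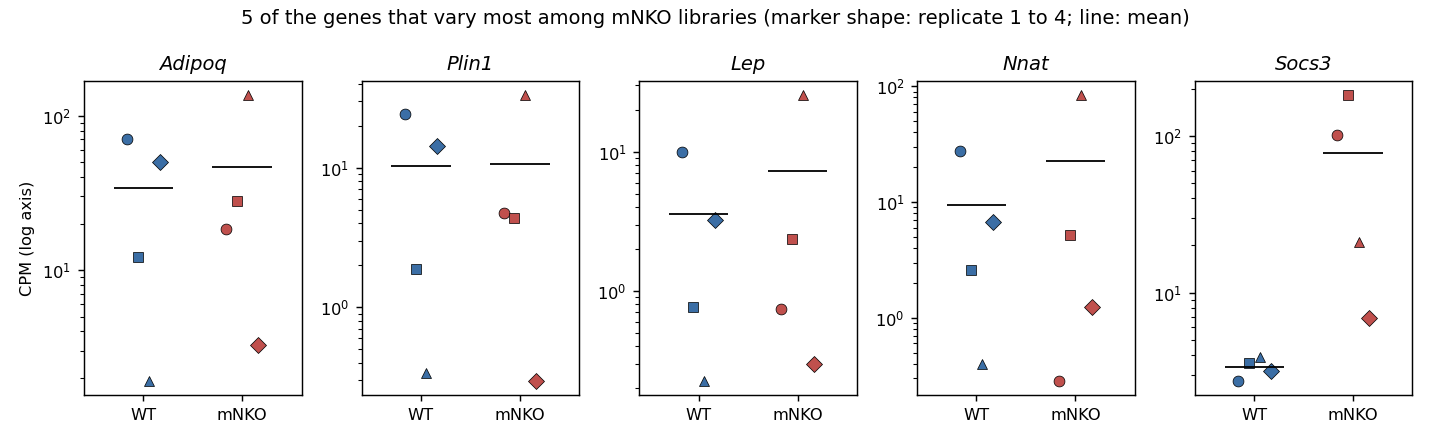
CPM, on a log axis, of 5 of the 15 genes that vary most among mNKO libraries, with 1 symbol per replicate of WT (blue) and mNKO (red) and a line at the group mean. The 4 genes on the left overlap between the groups and are highest in mNKO replicate 3 (triangle), and Socs3 on the right is higher in every mNKO library than in any WT library.

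Other genes differed little. Of 2271 genes at 50 CPM or more, 606 had a 95% interval of the fold change wholly within 1.5-fold in either direction, and 733 did under total counts. The tightest were Npepps, an aminopeptidase, at 76.4, 72.3, 83.5 and 78.2 CPM in WT and 76.8, 81, 76.4 and 72.4 in mNKO (log2 fold change -0.02, 95% interval -0.24 to 0.21), Tpp1, a lysosomal peptidase, at 75.2, 75.9, 81.6 and 71.1 CPM in WT and 84.7, 76.4, 73.6 and 71.1 in mNKO (log2 fold change 0.01, 95% interval -0.23 to 0.24), and the RNA-binding Hnrnpul2 at 92.5, 87.9, 97.8 and 109 CPM in WT and 100.1, 96.3, 92.7 and 99.1 in mNKO (log2 fold change 0, 95% interval -0.24 to 0.25). Under total counts these 3 had log2 fold changes of 0.5, 0.53 and 0.52, each with an adjusted p under 0.05 (edgeR).

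The authors' deposited table for this comparison lists 16089 genes, of which 7688 have an adjusted p under 0.05 (4184 higher and 3504 lower). All 13140 genes tested here are in it. Of the 13140, 3644 rises and 3204 falls are called in the same direction in the authors' deposited table, 126 are called here only, 215 there only, and none in the opposite direction.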

How the data were processed

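Poly-A RNA of mouse quadriceps was sequenced, and the values used are whole-number counts of reads per gene, deposited by the authors for the whole series. The submitters' processing notes name cutadapt 1.4.2, TopHat2, HTSeq, DESeq2, DESeq and the build mm10, and neither strand nor annotation release is given in the sources used here. The authors' deposited table of the comparison holds a mean signal per gene (normalized counts), log2 fold changes and p-values, used only to set calls side by side. Gene names and coordinates come from the files and from the reference annotation on the same build.

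Libraries were grouped by genotype and age from the labels, and replicates are different animals. The 8 libraries were fitted alone with edgeR 4.0.16 (R 4.3.3): filterByExpr kept 13140 genes, TMM factors were computed, and glmQLFit and glmQLFTest were run with 6 residual degrees of freedom. Rows that name no gene (not assigned, 21.53% to 33.5% of reads) stayed out of totals and tests. The 4 library measures were compared by exact permutation tests in scipy 1.17.1. Depth of 14900674 to 22755930 counts gave a median SE of 0.187 on the log2 scale, and intervals and floors cover counting error only where they come from counts. The fit was also run on simulated counts drawn from the WT means, with 50 genes changed at each fold, up and down alike. Among 12308 genes it called 26%, 66%, 90% and 96% of genes changed 1.5-, 2-, 4- and 8-fold, with 8 false calls. So few changes hardly shift the make-up of a library. Recovery and false calls where 53.1% of genes are called, as here, were therefore not tested.

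Gene lists, the genes in them and families were chosen with earlier results of these data known. Genes are named by rule: the 30 largest folds, 15 largest CPM differences and 10 smallest p in each direction (1 CPM or more, groups apart), the 15 most variable and 10 steadiest genes, up to 5 members per list or 3 per family by p, and members that go against their list. Alternatives were other scalings, filters, DESeq2 1.42.0, limma 3.58.1 and leaving out each library. Promoter letters come from RefSeq's table for GRCm38.p6. A few genes are not reported here.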

Additional observations from a re-analysis of the deposited data

Results flagged for a closer look

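Each group of 4 libraries was checked for a highest or lowest value that lay far from the other 3 (its gap to the nearest of them as a share of the whole range, by Dixon's criterion), for every gene named and every cell-type marker sum. Of 548 groups checked, 40 met it, and chance alone gives about 1 in 20. The library of WT replicate 1 stood apart in CPM for Cap1 at 21.1, Mc5r at 2.06, Pmaip1 at 0.114 and Ptbp1 at 16.7. In WT replicate 2 they were Grb10 at 41.8, Me2 at 3.62, Nampt at 102, Snrpn at 108 and Tbx15 at 483. In WT replicate 3 it was Tnnc1 at 0.396. For WT replicate 4, the WT library nearest to mNKO, the values were Atp6v0d2 at 3.06, Elmo1 at 2.4, Lgals3 at 24.4, Mest at 3.002, Tmem8c at 1.26 and Trem2 at 3.3. In mNKO replicate 1 they were Ccdc141 at 18.9, Ncam1 at 25.7 and the red blood cell marker sum at 2017. In mNKO replicate 2 they were Erbb2 at 6.66, Fap at 14.8, Ifi47 at 11.4, Mbnl1 at 252, Slc2a3 at 3.94, Tnfrsf1a at 124, Tuba4a at 634 and Zfp703 at 68.9. In mNKO replicate 3 they were Itga5 at 32.8, Nnat at 83.6, Plin1 at 33, the Schwann cell marker sum at 100 and the cartilage or bone marker sum at 1.81. In mNKO replicate 4 they were Anxa2 at 283, Col4a2 at 307, Crtap at 46.7, Fermt2 at 84.5, Mapt at 34.3, Rdx at 46, Serpinf1 at 344 and the NK cell marker sum at 9.17.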

How the results depend on the processing

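The count of genes changed (6974) lay between 6570 and 7706 over 8 other scalings, filters and tools and between 6173 and 6843 when 1 library was left out. Scaling to total counts without TMM was the alternative that moved most: 6779 genes were then higher and 927 lower, 3943 and 309 by at least 2-fold, the median log2 fold change of all genes was 0.538, and 83 of 84 lists and families had more rises than falls, against 55 with TMM. The median of all genes was 0.157 with no filter on low counts and 0.132 in DESeq2. With 1 library left out, 3481 to 3804 genes were higher and 2667 to 3067 lower, 2460 to 2731 and 838 to 1098 of them by at least 2-fold, the median was 0 to 0.04, and 54 to 57 lists had more rises than falls.

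The differences in library make-up, mNKO minus WT, were then -8.04 to -6.07 percentage points for mitochondrial genes, -10.6 to -9.43 for the 10 most abundant genes, -7.72 to -5.31 for reads not assigned, and 80.2 to 92.9 more genes holding 50% of counts. With 3 against 4 libraries the smallest exact permutation p is 0.0571, so none could pass 0.05.

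Total counts turned all 28 medians of the 84 lists and families that were below 0 with TMM to above 0. Of those in the text that had been at -0.1 or lower, 18 did so: 0.15 for calcium pumps and their peptides, 0.06 for the sarcomere scaffold, 0.35 for homeobox genes, 0.13 for nuclear receptors, 0.29 for amino acid and one-carbon genes, 0.41 for polyamine genes, 0.21 for mitochondrial proteostasis, 0.38 for chromatin enzymes, 0.22 for mitochondrial carriers, 0.24 for Zfp genes, 0.36 for DnaJ chaperones, 0.32 for ubiquitin-specific proteases, 0.28 for mitochondrial ribosomal proteins, 0.26 for initiation factors, 0.23 for tRNA synthetases, 0.39 for guanylate-binding proteins, 0.07 for Hox genes and 0.08 for Ankrd and Asb genes. The polyamine median was 0.03 with a filter of 1 CPM in 4 libraries, which tests fewer genes. Each shift is the 0.52 that this scaling adds to every gene.

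Of 244 named genes called, 230 kept their direction and stayed under an adjusted p of 0.05 in each of the 16 settings (edgeR, limma or DESeq2) that gave them a value, and the other 14 were falls not called under total counts. In some setting 9 of the 244 had no value. No paired analysis was possible because the labels give each animal its own number and no number is shared between WT and mNKO. At this depth genes under 1 CPM had few reads, and small differences among them were not detectable.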
